A study of Homo sapiens with 27 samples.

Results

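The interferon response genes described here are 31 genes that cells transcribe when interferon reaches its receptor or when RNA of a virus is sensed. They were taken by gene symbol, older symbol or transcript from the spots of each array, and all 31 had probes on both array platforms of the series, 41 probes in all per platform. On the platform shared by 8 compounds all 31 could be tested among 17268 named genes, and on the platform of the ninth compound 28 of the 31 among 14381, with IFI16, IFI44L and OASL not above background there. The cells were HepG2, a human liver cancer line, and each array paired RNA of cells exposed for 48 h to 1 of 9 polycyclic aromatic hydrocarbons, labelled with Cy5, with RNA of cells given the solvent DMSO, labelled with Cy3. The exposed groups, of 3 arrays each, were BaP (benzo[a]pyrene), DBA (dibenzo[a,h]anthracene) and BF (benzo[k]fluoranthene), then CHR (chrysene), BA (benzo[a]anthracene) and 3MC (3-methylcholanthrene), then the smaller PH (phenanthrene) and NP (naphthalene), and on its own platform IND (indeno[1,2,3-c,d]pyrene). HepG2 is 1 line, so differences between people are outside these data. The labels give no dose, and do not say whether the 3 arrays of a compound came from separate cultures or whether compounds shared DMSO cells, so p-values measure the spread between arrays, which may be technical. The dyes were never swapped, so a dye effect of a probe cannot be told apart from an effect of the compound.

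Type I and type III interferons bind receptors on the cell surface, and the kinases JAK1 and TYK2 then act on STAT2, which joins IRF9 in the factor ISGF3. ISGF3 binds the interferon-stimulated response element in promoters, while interferon gamma acts through the gamma-activated site. The induced proteins sense foreign RNA, degrade it, block its translation or its entry, tag proteins with ubiquitin-like modifiers, and dampen the signal again. Hepatocytes respond to all these interferons. Polycyclic aromatic hydrocarbons are ligands of the aryl hydrocarbon receptor, which binds the xenobiotic response element and induces CYP1A1.

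Promoter windows of 300 bases (250 before the transcription start and 50 from it on) were taken from RefSeq, build GRCh38.p14, where 24 of the 31 members matched, in 30 windows, while MX2, IRF7, IFITM2, USP18, OAS2, IFIT2 and OASL did not. The core of the interferon-stimulated response element was searched on both strands as GAAA, any 2 bases and GAAA again. It stood in 20 of the 30 windows (66.7%), against 3.57% of the 35116 windows in the table. The gamma-activated site, searched as TTCNNNGAA, stood in 9 of 30 (30.0%), against 7.66% of all windows. GCGTG, the core of the xenobiotic response element, stood in 7 of 30 (23.3%), against 36.5% of all. A match describes the letters of a window and is not a measured binding site, and matches of the first pattern may overlap each other. Only this spacing and these 300 bases were searched. A window without a match does not show that the gene lacks the element. Among the 24 members, 16 held the first pattern and 8 did not (IRF9, OAS1, UBD, DDX58, IFI35, IFI16, IRF1 and STAT2). The 5 windows below belong to the members that passed the test in most compounds and hold that pattern. They show the pattern both in members whose calls were all rises (ISG15, IFITM3 and IFITM1) and in members whose calls were all falls (IFIT1 and IFIH1). Each is written 5′ to 3′ along the gene's strand, with matches of that core on either strand in capitals: ISG15 at chr1:1013247-1013546, plus strand; IFITM3 at chr11:320811-321110, minus strand; IFITM1 at chr11:313790-314089, plus strand; IFIT1 at chr10:89392373-89392672, plus strand; IFIH1 at chr2:162318635-162318934, minus strand.
ISG15: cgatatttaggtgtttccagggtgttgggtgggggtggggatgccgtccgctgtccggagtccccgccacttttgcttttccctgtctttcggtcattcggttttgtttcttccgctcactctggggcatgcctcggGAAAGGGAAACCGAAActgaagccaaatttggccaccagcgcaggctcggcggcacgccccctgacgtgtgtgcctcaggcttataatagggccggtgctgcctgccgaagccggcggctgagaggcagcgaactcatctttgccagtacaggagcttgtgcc
IFITM3: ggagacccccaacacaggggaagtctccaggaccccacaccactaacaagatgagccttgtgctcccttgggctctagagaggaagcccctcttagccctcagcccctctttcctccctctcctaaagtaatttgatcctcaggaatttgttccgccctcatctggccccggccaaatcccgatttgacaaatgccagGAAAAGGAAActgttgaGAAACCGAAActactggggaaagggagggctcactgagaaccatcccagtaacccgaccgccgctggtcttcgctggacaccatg
IFITM1: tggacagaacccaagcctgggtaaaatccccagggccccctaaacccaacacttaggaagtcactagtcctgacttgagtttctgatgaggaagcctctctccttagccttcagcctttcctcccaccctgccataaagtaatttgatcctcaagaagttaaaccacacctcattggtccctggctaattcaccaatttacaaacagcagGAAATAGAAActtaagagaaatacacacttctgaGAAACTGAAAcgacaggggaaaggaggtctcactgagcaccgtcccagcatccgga
IFIT1: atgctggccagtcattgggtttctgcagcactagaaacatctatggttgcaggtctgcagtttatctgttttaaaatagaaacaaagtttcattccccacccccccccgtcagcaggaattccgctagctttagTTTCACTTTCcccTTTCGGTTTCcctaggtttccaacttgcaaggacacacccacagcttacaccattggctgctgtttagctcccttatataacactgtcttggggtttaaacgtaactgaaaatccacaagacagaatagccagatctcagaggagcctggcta
IFIH1: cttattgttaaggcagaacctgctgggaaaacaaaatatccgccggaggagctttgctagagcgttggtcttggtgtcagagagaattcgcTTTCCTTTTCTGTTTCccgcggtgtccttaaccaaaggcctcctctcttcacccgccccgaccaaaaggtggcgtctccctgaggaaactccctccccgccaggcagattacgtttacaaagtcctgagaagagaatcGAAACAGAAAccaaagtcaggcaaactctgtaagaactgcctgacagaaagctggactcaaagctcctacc

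The arrays differed in brightness. The median Cy5 signal above background was 36 to 48 units on the DBA arrays, 85 to 124 on the 3MC and NP arrays and 299 to 1484 on the others, and between 60.5% and 98.1% of probes exceeded background in that dye. With 3 arrays a compound, their number limits the precision. CYP1A1, the known target of the aryl hydrocarbon receptor, had log2 ratios of 0.58, 6.25 and 6.23 on the BA arrays. Its Cy5 spot was saturated on 2 of these 3 arrays and DMSO cells stood above background on 2, so the high ratios are not exact, but the first array stood apart from the other two. The ratios of the first array over all tested probes correlated with theirs at 0.13 to 0.18, while arrays of 1 compound correlated at 0.90 or above elsewhere, so BA results are also given without it. All 10 hepatocyte markers that were looked up stood above background on all 27 arrays in both channels. The 12 markers of leukocytes, fibroblasts and endothelium were above background on 7 to 26 arrays in Cy5 and on 12 to 26 in Cy3. Their part in the results was not tested.

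Against DMSO, a gene was said to rise or fall where limma's adjusted p over all genes was under 0.05 and the change was at least 1.5-fold. With BaP, 15 of the 31 interferon response genes rose and 1 fell, while 15.1% of all genes tested rose and 10% fell. With IND, 10 of 28 rose and 4 fell (10.5% and 13.2% of all genes). With CHR, 9 of 31 rose and 2 fell (11.7% and 12.3% of all genes). With DBA, 7 rose and none fell (3.08% and 7.25% of all genes). In these 4 exposures the share of members that rose was above that of all genes, at 48.4% with BaP, 35.7% with IND, 29.0% with CHR and 22.6% with DBA, and the share that fell was near or below it.

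With PH, 5 members rose and 5 fell (10.6% and 7.89% of all genes), so 16.1% of members moved each way. With NP, 4 rose and 4 fell (6.72% and 12.6% of all genes). With BF, 5 rose and 7 fell (16.0% and 20.4% of all genes), shares that lay close to those of all genes. With 3MC, ISG15 rose and no member fell (3.68% and 7.46% of all genes). With BA, no member rose and IFIT1 fell (2.04% and 3.1% of all genes). Without BA array 1 again 1 member fell with BA and none rose. On BA arrays 2 and 3 IFITM2 averaged 0.56 and DDX58 0.51, both short of 1.5-fold, while array 1 gave -0.19 and -0.33. With 3MC and BA the counts were at or under the background, although limma gave 18 and 20 members an unadjusted p under 0.05. The share of all genes with an unadjusted p under 0.05 was not counted. The median log2 ratio over the members was 0.57 with BaP, 0.34 with IND and 0.25 with CHR, and from -0.06 to 0.08 with the other compounds, while the medians over all genes lay between -0.01 and 0.04. Under median centring in place of loess the split of members that rose and fell became 3 and 7 with NP, 6 and 5 with BF, and 3 and 2 with BA.

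**Figure D1:**
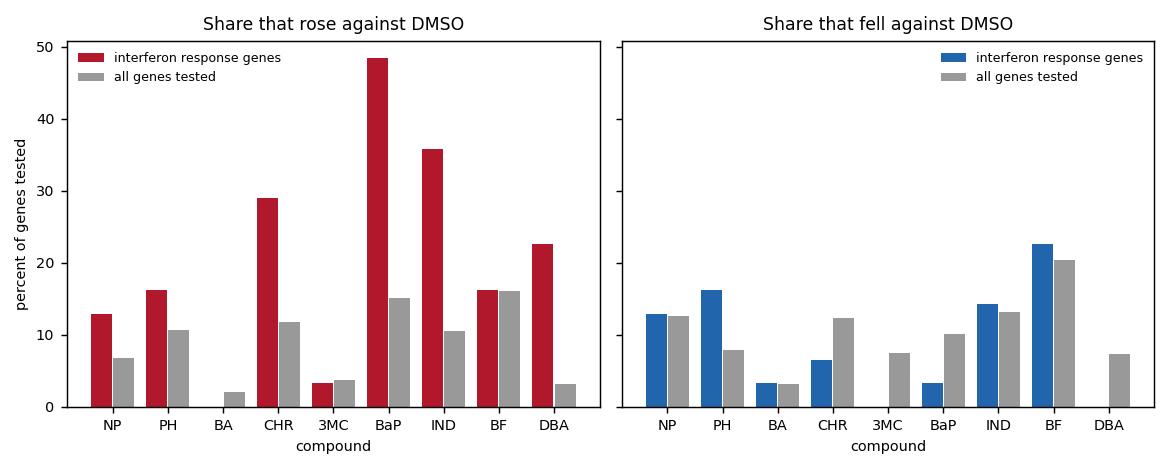
Percent of genes that rose (left panel) or fell (right panel) against DMSO per compound. Coloured bars are the interferon response genes (31, and 28 with IND) and grey bars all genes tested. The coloured bars of the left panel stand at 48.4% with BaP, 35.7% with IND, 29.0% with CHR and 22.6% with DBA, above the grey bars, and in the right panel those of BA, NP, IND and BF stand close to the grey bars.

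In all, 276 tests of a member with a compound gave 56 rises and 24 falls, and the 3 arrays had 1 sign in all 80 of them. The remaining 196 log2 ratios lay between -0.58 and 0.58. Changes of at least 2-fold numbered 33, of which 24 were rises and 9 were falls. Of the 31 members, 26 passed with at least 1 compound. Among these 13 only rose, 7 only fell, and 6 rose with some compounds and fell with others. The same counts across compounds were not made for all genes, so these numbers alone do not set the members apart. IFI44, IFI44L, IFIT2, MX1 and STAT2 passed with none. The 12 members that passed with at least 3 compounds are described with the value on each array, grouped by what they do.

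**Figure D2:**
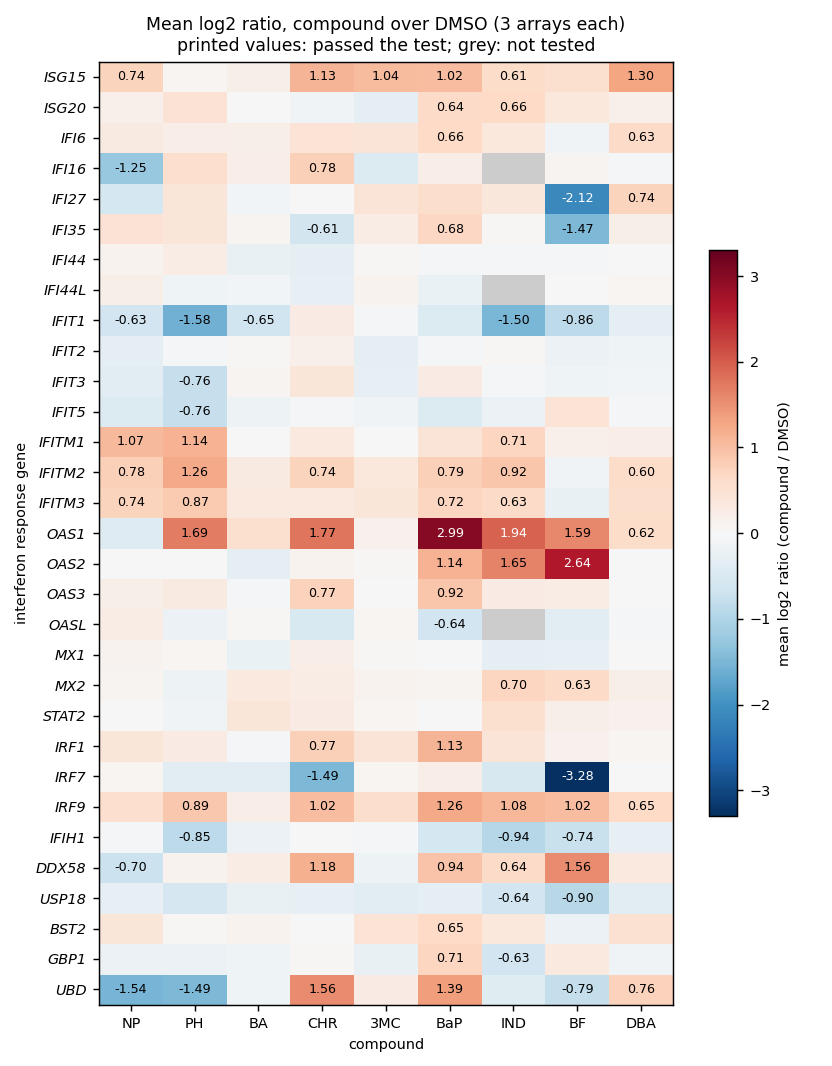
Mean log2 ratio of compound over DMSO (colour, 3 arrays each) for the 31 interferon response genes (rows) and 9 compounds (columns). Numbers are printed where the gene passed the test and grey cells were not tested. The OAS1 and IRF9 rows each hold 6 rises, the IFIT1 row holds 5 falls, and the UBD row holds 3 of each.

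Among the transcription factors, IRF9, the DNA-binding subunit of ISGF3, rose with 6 compounds. Its log2 ratios were 1.22, 1.28 and 1.28 with BaP, 1.04, 1.06 and 1.14 with IND, and 0.87, 1.09 and 1.08 with CHR. They were 1.08, 1.06 and 0.92 with BF, 0.90, 0.88 and 0.89 with PH, and 0.68, 0.65 and 0.60 with DBA. The means ran from 0.65 ± 0.04 with DBA to 1.26 ± 0.04 with BaP (SD, n = 3 each), or 1.56-fold to 2.4-fold, with limma adjusted p of 1.71e-09 and 9.6e-15. With NP and 3MC all 3 arrays also lay above 0, at means of 0.56 and 0.57 that stayed under 1.5-fold. With BA the arrays gave 0.03, 0.23 and 0.39. IRF9 was thus above 0 on all 27 arrays, and the spread between arrays was small beside the differences between compounds. STAT2, its partner in ISGF3, passed with no compound and had means from -0.11 with PH to 0.52 with IND. IRF1, a factor induced by interferon gamma, rose with CHR and BaP, with means of 0.77 and 1.13.

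IRF7, the factor that drives the genes for interferon alpha, fell with BF and CHR. Its log2 ratios were -3.49, -3.20 and -3.15 with BF, and -0.92, -1.74 and -1.81 with CHR, with means of -3.28 ± 0.18 and -1.49 ± 0.50 (SD, n = 3 each; limma adjusted p = 1.9e-16 and 1.99e-10). The fall with BF, to 0.103 of the DMSO level, was larger than that with CHR. The other probe of IRF7 gave -0.09 with BF and -0.14 with CHR, so these falls rest on 1 of 2 probes. On the probe used, BF cells stood above background on 2 of 3 arrays.

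Of the sensors, DDX58 (now named RIGI), which detects RNA with a free triphosphate end, rose with 4 compounds and fell with 1. On the arrays DDX58 had log2 ratios of 1.62, 1.62 and 1.44 with BF, and 0.98, 1.30 and 1.26 with CHR. They were 0.92, 0.95 and 0.94 with BaP, 0.63, 0.62 and 0.65 with IND, and -0.71, -0.73 and -0.67 with NP. The rise was largest with BF, at 1.56 ± 0.11 (2.95-fold, limma adjusted p = 6.91e-12), and the fall with NP was -0.70 ± 0.03 (adjusted p = 3.32e-06). The arrays of the rising compounds and of NP lay on opposite sides of 0 without overlap. Under median centring the IND value of 0.58 no longer reached 1.5-fold. IFIH1 (MDA5), which detects long double-stranded RNA, fell with 3 compounds and rose with none. IFIH1 measured log2 ratios of -0.89, -0.96 and -0.97 with IND, -0.91, -0.83 and -0.81 with PH, and -0.75, -0.80 and -0.68 with BF, with means of -0.94 ± 0.04, -0.85 ± 0.05 and -0.74 ± 0.06 (limma adjusted p = 1.54e-06, 2.34e-08 and 1.02e-07). With IND and BF, therefore, the ratio of DDX58 was above 0 and that of IFIH1 below 0 on every array. IFI16, a sensor of DNA, had -1.33, -1.10 and -1.32 with NP, and 0.76, 0.77 and 0.81 with CHR, so it fell with NP (-1.25 ± 0.13) and rose with CHR (0.78 ± 0.02). Its other probe gave 0.06 with NP and 0.26 with CHR, and the mean of both probes ended the call with CHR at 0.52.

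The oligoadenylate synthetases make, on double-stranded RNA, the short oligoadenylates that switch on RNase L. OAS1 rose with 6 compounds, most with BaP. Its log2 ratios were 2.95, 2.87 and 3.15 with BaP, 1.87, 1.95 and 2.00 with IND, and 1.72, 1.79 and 1.79 with CHR. They were 1.78, 1.64 and 1.64 with PH, 1.54, 1.58 and 1.63 with BF, and 0.70, 0.51 and 0.64 with DBA. The mean was 2.99 ± 0.14 with BaP (SD, n = 3), or 7.95-fold, with a limma adjusted p of 6.98e-21. It was 1.94 with IND, 1.77 with CHR, 1.69 with PH, 1.59 with BF and 0.62 with DBA. The BaP arrays lay above all others, and those of CHR and PH, which came next on the shared platform, lay close together. With NP the 3 arrays were below 0, at -0.34, -0.50 and -0.40. With BA and 3MC the means were 0.52 and 0.15. Without the first DBA array the DBA value was 0.58 and no longer reached 1.5-fold.

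OAS2 rose with 3 compounds. On the arrays OAS2 had log2 ratios of 2.56, 2.87 and 2.47 with BF, 1.71, 1.58 and 1.66 with IND, and 1.04, 1.02 and 1.36 with BaP. In DMSO cells of the BF and IND arrays OAS2 did not stand above background on any array by either probe, so the rise was at least 6-fold with BF (limma adjusted p = 4.86e-16) and at least 3.11-fold with IND (adjusted p = 2.41e-07). The bound sets the mean of the exposed channel against the higher of the dim spot and the lowest signal that stood above background. The IND value is of another probe than that used for the other compounds, which gave 0.84 with IND. With BaP the mean was 1.14 ± 0.19 by the probe used and 2.03 by the other. With the remaining compounds OAS2 lay between -0.33 and 0.12. OAS3 rose with CHR and BaP, at 0.77 and 0.92, and its other probe gave 0.73 and 0.92. OASL, a relative that makes no oligoadenylate, went the other way with BaP, at -0.73, -0.64 and -0.56 (mean -0.64 ± 0.08, limma adjusted p = 1.04e-10). With BaP, then, OAS1, OAS2 and OAS3 rose while OASL fell, on all 3 arrays.

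The IFIT proteins bind foreign RNA and block its translation. IFIT1 fell with 5 compounds and rose with none. Its log2 ratios were -2.42, -1.10 and -1.22 with PH, -1.58, -1.37 and -1.55 with IND, and -0.84, -0.75 and -0.99 with BF. They were -0.69, -0.66 and -0.59 with BA, and -0.67, -0.70 and -0.51 with NP. The PH mean of -1.58 ± 0.73 (limma adjusted p = 8.39e-09) had the widest spread of any call, since the first array lay far below the other two. The p-value rests on a spread pooled over the 8 compounds of the shared platform, and not on this SD alone. With IND, cells exposed to the compound did not stand above background on any array, so IFIT1 was at least 2.83-fold lower there (adjusted p = 6.54e-07). With BF it stood above background on only 1 array in each channel. The fall with BA, at -0.65 ± 0.06 (adjusted p = 0.00154), kept its size without the first BA array but lost the call under median centring (-0.58), in the authors' values (-0.52) and with BA fitted alone, where limma's adjusted p was 0.136. IFIT3 and IFIT5 fell with PH, at -0.76 and -0.76, and IFIT2 passed with no compound (means -0.34 to 0.18). With PH, 3 of the 4 IFIT genes thus fell, and no IFIT gene rose with any compound.

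The IFITM genes, which sit side by side on chromosome 11 and encode membrane proteins that hinder the entry of viruses, rose with NP, PH and IND, where IFIT1 fell. IFITM2 rose with 6 compounds. For IFITM2 the arrays gave log2 ratios of 1.34, 1.24 and 1.21 with PH, 0.97, 0.82 and 0.98 with IND, and 0.70, 0.76 and 0.92 with BaP. They were 0.79, 0.77 and 0.79 with NP, 0.61, 0.82 and 0.79 with CHR, and 0.65, 0.58 and 0.55 with DBA. The means ran from 0.60 with DBA to 1.26 ± 0.07 with PH (2.4-fold, limma adjusted p = 1.07e-10), and all arrays of these 6 compounds lay above those of BF, at -0.12, -0.08 and -0.18. Without the first DBA array the DBA value of 0.57 no longer reached 1.5-fold. IFITM3 rose with 4 compounds. For IFITM3 they gave log2 ratios of 0.87, 0.83 and 0.91 with PH, and 0.77, 0.70 and 0.76 with NP. They were 0.79, 0.72 and 0.63 with BaP, and 0.65, 0.71 and 0.53 with IND. The means of IFITM3 lay between 0.63 and 0.87 (limma adjusted p from 3.01e-12 to 2.47e-05), a narrower range than for IFITM2.

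IFITM1 rose with 3 compounds, at 1.07, 1.15 and 1.21 with PH, 1.06, 1.06 and 1.10 with NP, and 0.85, 0.68 and 0.60 with IND. The means were 1.14 ± 0.07, 1.07 ± 0.02 and 0.71 ± 0.13 (limma adjusted p = 1.59e-12, 3.52e-12 and 2.69e-05). All 3 IFITM genes therefore rose with NP, PH and IND, and with NP they were 3 of the 4 members that rose. With BaP the mean of IFITM1 was 0.43, under the 1.5-fold limit that IFITM2 and IFITM3 passed. The 3 genes are similar in sequence, and binding of one gene's transcript to another's probe was not tested. BST2 (tetherin), which holds virus particles at the membrane, rose with BaP at 0.65 and with no other compound.

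ISG15, a ubiquitin-like protein that is joined to other proteins, rose with 6 compounds. Its log2 ratios were 1.40, 1.31 and 1.2 with DBA, 1.40, 0.92 and 1.08 with CHR, and 1.02, 1.05 and 1.04 with 3MC. They were 0.97, 1.00 and 1.09 with BaP, 0.71, 0.73 and 0.79 with NP, and 0.51, 0.69 and 0.62 with IND. The mean was 1.30 ± 0.10 with DBA (SD, n = 3; 2.46-fold, limma adjusted p = 1.1e-12), and it was 1.13 with CHR, 1.04 with 3MC, 1.02 with BaP, 0.74 with NP and 0.61 with IND. ISG15 was the one member to pass with 3MC. With PH its arrays lay on both sides of 0 (-0.11, 0.07 and 0.20), although OAS1 and IRF9 rose there. The call with NP was lost under median centring (0.50), and that with IND without IND array 2 (0.57). USP18, which removes ISG15 from proteins and dampens the receptor, fell with IND and BF, at -0.64 and -0.90 (-0.58 with BF under median centring, short of 1.5-fold). By the probe used on each platform USP18 was below 0 on all 27 arrays. The IND value is of another probe than that used for the other compounds, which gave -0.69 with IND. The probe used for IND gave -1.32 with BF and 0.20 with NP.

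UBD (FAT10), another ubiquitin-like protein that sends its targets to the proteasome, rose with 3 compounds and fell with 3. The arrays of UBD gave log2 ratios of 1.49, 1.55 and 1.65 with CHR, 1.39, 1.30 and 1.49 with BaP, and 0.87, 0.71 and 0.71 with DBA. They were -1.67, -1.45 and -1.50 with NP, -1.48, -1.54 and -1.44 with PH, and -0.83, -0.77 and -0.76 with BF. The rises averaged 1.56 ± 0.08 with CHR, 1.39 ± 0.10 with BaP and 0.76 ± 0.09 with DBA (SD, n = 3 each; limma adjusted p = 1.35e-15, 4.58e-15 and 3.1e-10). The falls averaged -1.54 ± 0.11 with NP, -1.49 ± 0.05 with PH and -0.79 ± 0.04 with BF (limma adjusted p = 2.07e-15, 4.19e-15 and 3.42e-11). No array of the rising compounds overlapped with one of the falling compounds. The fall with BF depended on the normalisation: under median centring it was -0.06 (limma adjusted p = 0.53). With IND the mean was -0.41, with 3MC 0.28 and with BA -0.14.

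**Figure D3:**
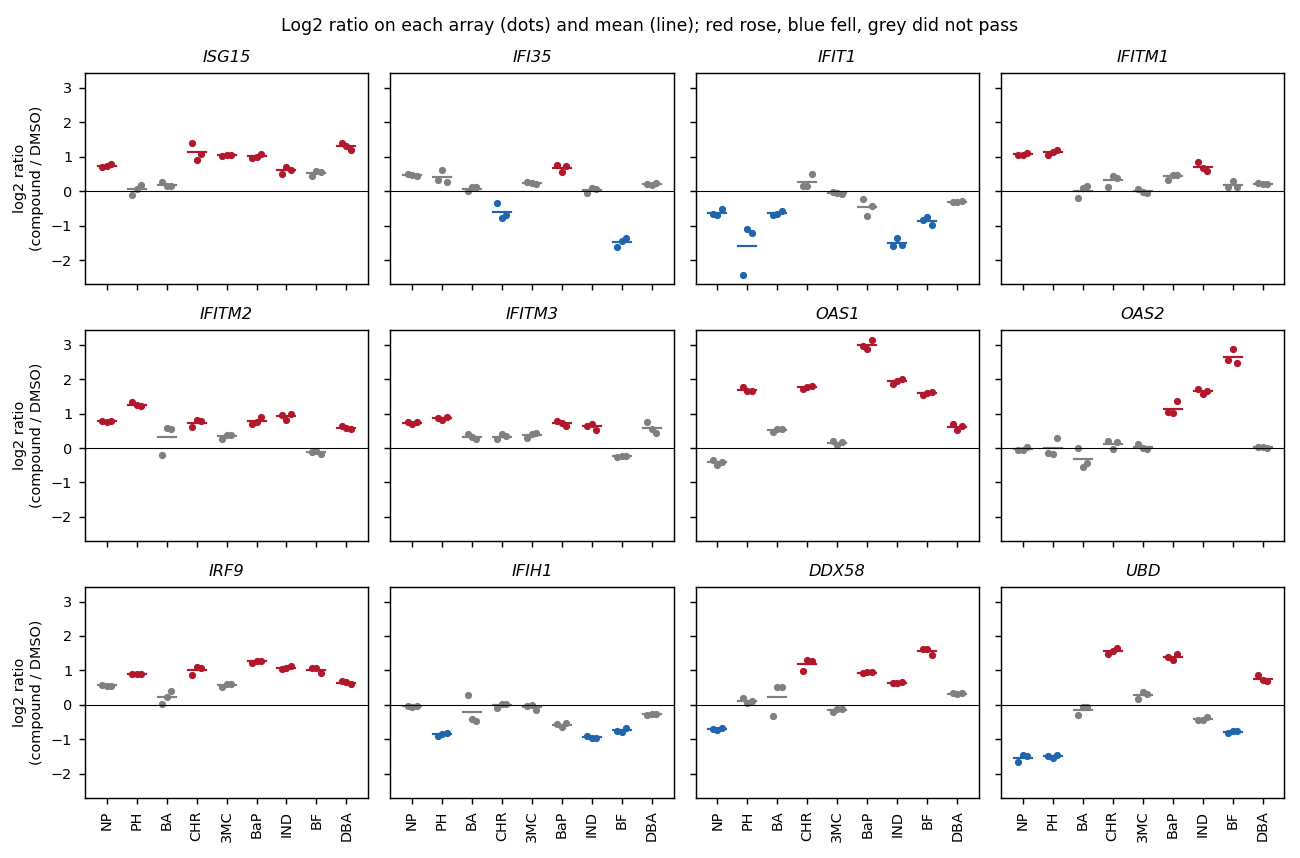
Log2 ratio of compound over DMSO on each of 3 arrays (dots) with the mean (line), per compound, for the 12 members that passed with at least 3 compounds; red rose, blue fell, grey did not pass. OAS1 is highest with BaP, IFIT1 dots lie below 0 with NP, PH, BA, IND and BF, and UBD has blue dots with NP, PH and BF and red dots with CHR, BaP and DBA.

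The remaining members have other or less settled roles. IFI35, which forms a complex with the protein NMI, rose with BaP and fell with CHR and BF. For IFI35 the arrays gave log2 ratios of 0.76, 0.55 and 0.73 with BaP, -0.35, -0.77 and -0.70 with CHR, and -1.62, -1.44 and -1.36 with BF. The means were 0.68 ± 0.12, -0.61 ± 0.23 and -1.47 ± 0.14 (limma adjusted p = 1.74e-08, 1.03e-07 and 3.19e-14). The BaP arrays did not overlap with those of CHR or BF, while the CHR fall lost its call under median centring (-0.58) and without CHR array 2 or 3 (-0.53 and -0.56). IFI27, a small membrane protein, fell with BF at -2.37, -1.75 and -2.25 (mean -2.12 ± 0.33, limma adjusted p = 1.55e-13) and rose with DBA at a mean of 0.74. The other probe of IFI27 pointed up with BF, at 0.57, and gave 1.18 with BaP, 1.04 with CHR, -1.22 with NP and 0.63 with DBA, so the direction with BF depended on the probe.

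Other members passed with 1 or 2 compounds. The exonuclease ISG20 rose with BaP and IND (0.64 and 0.66; the IND value was 0.58 under median centring). IFI6, a protein of membranes inside the cell, rose with BaP and DBA (0.66 and 0.63). The DBA value did not reach 1.5-fold with spots not found left out (0.58), in the authors' values (0.51) or without DBA array 3 (0.51). MX2, a dynamin-like GTPase, rose with IND and BF (0.70 and 0.63), but its other probe gave -0.48 with BF. GBP1, a guanylate-binding protein, rose with BaP (0.71) and fell with IND (-0.63, and -0.55 without IND array 3). The IND value is of another probe than that used for BaP, and that probe gave 0.63 with BaP. MX1, the best-known GTPase of this response, stayed between -0.31 and 0.21 with all 9 compounds, and IFI44 and IFI44L between -0.28 and 0.25.

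Compounds were then compared with each other, for 6 pairs on the shared platform, with p-values adjusted over all genes and the 6 pairs together. All exposures lasted 48 h, but doses are not given and each compound had its own arrays. A difference between compounds cannot be told apart from one of dose, array set or starting level. By the probe used, the DMSO level ranged over 7.32 log2 units for IRF7 and 2.72 for UBD between the 8 compounds. The intervals and p-values below measure the spread between arrays, pooled over the 8 compounds, and do not cover this. CHR and BA are isomers of each other, as are BaP and BF. Against BA, CHR had 8 members higher and 2 lower (18.6% of all genes differed). UBD differed by 1.70 (95% interval 1.54 to 1.87) and OAS1 by 1.25 (95% interval 1.10 to 1.40) on the log2 scale (limma adjusted p = 2.61e-13 and 7.3e-12). Without the first BA array 9 were higher and 2 lower. Against BF, BaP had 12 members higher and 3 lower (35.3% of all genes differed). IRF7 differed by 3.50 (95% interval 3.16 to 3.83) and IFI27 by 2.69 (95% interval 2.37 to 3.02), genes whose probes disagreed with BF, followed by UBD with 2.18 (95% interval 2.01 to 2.35) and IFI35 with 2.15 (95% interval 1.95 to 2.36). The limma adjusted p of UBD was 5.92e-15 and that of IFI35 1.89e-13. OAS2 was among the 3 that were lower with BaP, but DMSO cells stood above background on 1 of 3 BaP arrays and on none of the BF arrays, and its other probe gave means of 2.03 with BaP and 2.64 with BF, so no size is given. Under median centring the counts for this pair were 9 and 4.

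Larger compounds were also set against smaller ones. Against PH, BaP had 11 members higher and 1 lower (21.8% of all genes differed). UBD differed by 2.88 (95% interval 2.71 to 3.05) and OAS1 by 1.30 (95% interval 1.15 to 1.45), and IFITM1 was the member that was lower, with a difference of -0.71 (95% interval -0.90 to -0.52) (limma adjusted p = 1.41e-16, 3.75e-12 and 1.04e-06). Against NP, DBA had 5 members higher and 1 lower (11.3% of all genes differed). UBD differed by 2.30 (95% interval 2.13 to 2.46) and IFI27 by 1.31 (95% interval 0.98 to 1.63). Against NP, 3MC had 3 members higher and 1 lower (8.21% of all genes differed), with UBD at 1.82 (95% interval 1.66 to 1.99) and IFITM1 at -1.07 (95% interval -1.26 to -0.89). UBD had the largest difference among members that passed in CHR minus BA and in the 3 pairs of a larger compound with PH or NP, and IFITM1 was lower with the larger compound in those 3. Under median centring the counts became 10 and 0 for DBA minus NP and 6 and 1 for 3MC minus NP. Between DBA and 3MC no member passed in limma (2.28% of all genes differed). Under median centring 7 passed and under plain background subtraction 3, all higher with DBA. Under normexp and loess, 11 had an unadjusted p under 0.05 and 8 an adjusted p under 0.05 below 1.5-fold. The shares of all genes at these 2 thresholds were not counted. The largest difference was 0.49 on the log2 scale, and the 95% intervals of the 31 members reached from -0.70 to 0.79, so differences of that size are not excluded. limma's F test over the 8 compounds passed for 31 of 31 members, where 89.8% of all genes passed.

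**Figure D4:**
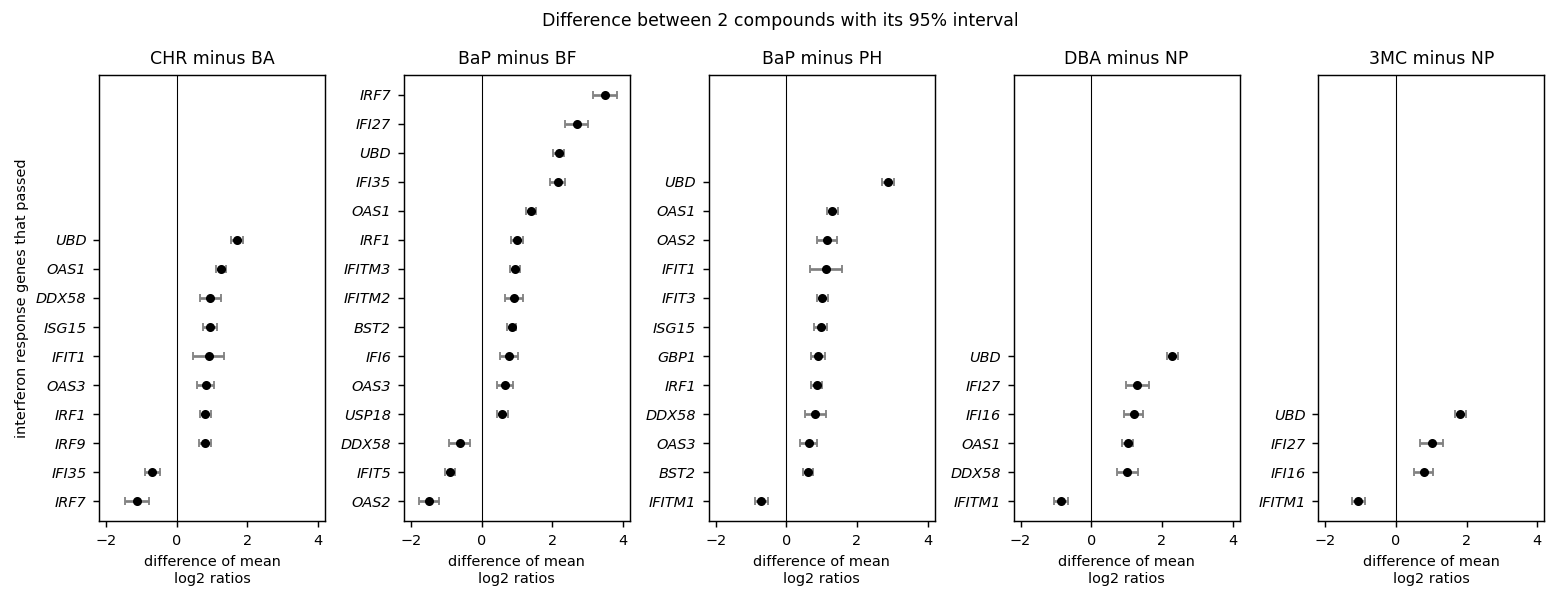
Difference of mean log2 ratios between 2 compounds (dot) with its 95% interval (bar), for the members that passed in each of 5 pairs; dots right of 0 are higher with the first-named compound. UBD stands highest in 4 of the 5 panels, and IFITM1 lies left of 0 in the 3 panels against PH or NP.

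The intensity of each channel, normalised between arrays, showed that several members had very different levels in the cells of different compounds, DMSO cells included. IRF7 had mean log2 intensities in exposed and DMSO cells of 13.09 against 13.46 on the BA arrays, 10.62 against 12.11 on the CHR arrays and 8.49 against 11.77 on the BF arrays. It had 7.65 against 8.0 on the PH arrays and 8.39 against 8.17 on the BaP arrays. On the NP, 3MC and DBA arrays both channels lay between 6.14 and 6.38, and exposed cells stood above background on none of these 9 arrays. By the probe used, both falls of IRF7 were thus on arrays where its DMSO level was high. The other IRF7 probe stood above background on 3 arrays in both channels with NP and with 3MC, and on 1 with DBA. OAS2 and IFI44L, by the probes used, were instead brightest on the NP, 3MC and DBA arrays. OAS2 had 10.06 against 10.08 on the NP arrays, 9.76 against 9.73 on the 3MC arrays and 9.82 against 9.80 on the DBA arrays. In DMSO cells of the other 5 compounds of the shared platform it had 6.19 to 7.20. The other OAS2 probe stood above background on 0 arrays with 3MC and DBA in either channel. With NP it did so on 0 in Cy5 and 2 in Cy3, so the level of OAS2 there depended on the probe. IFI44L had 9.54 against 9.35 on the NP arrays, 9.66 against 9.54 on the 3MC arrays and 8.79 against 8.72 on the DBA arrays, and 6.49 to 6.74 in DMSO cells of the other 5.

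IFI6 had 13.92 to 14.34 in DMSO cells of NP, 3MC and DBA, and 9.51 to 11.54 in those of the other 5. ISG15 had 9.77 against 8.75 on the BaP arrays and 9.20 against 9.15 on the PH arrays, and at least 10.83 in DMSO cells of the other 6, and BST2 had 9.30 against 8.65 on the BaP arrays and 8.50 against 8.47 on the PH arrays. The rise of ISG15 with BaP was therefore measured from a lower DMSO level than its rises with NP, CHR, 3MC and DBA. The range of the DMSO level over the 8 compounds was above 4-fold for 11 of 31 members (35.5%), against 36.7% of all genes tested, and its median was 1.73 on the log2 scale for members and 1.58 for all genes. The share among members was thus near that of all genes. The NP, 3MC and DBA arrays were also the dimmest, so a difference in the cells and one in the measurement cannot be told apart. In bulk RNA, fewer cells with a transcript and less of it per cell cannot be told apart either.

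**Figure D5:**
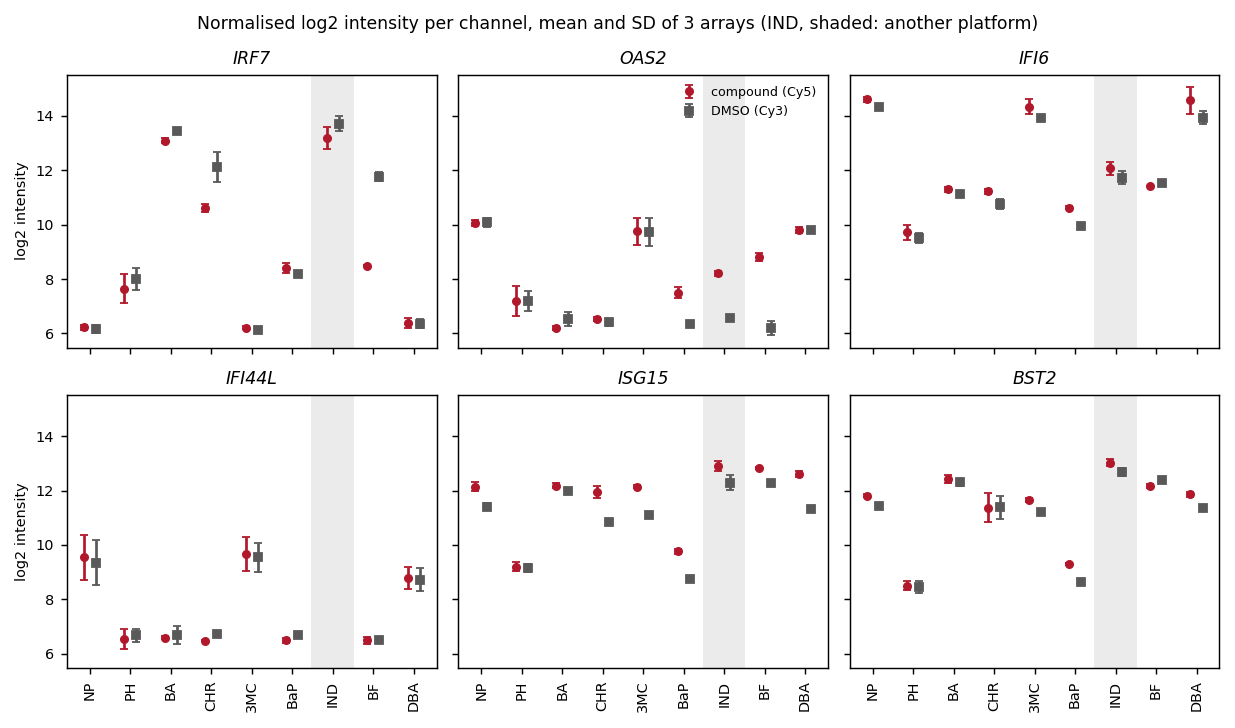
Mean log2 intensity ± SD of 3 arrays in exposed cells (Cy5, red) and DMSO cells (Cy3, grey) per compound for 6 members, normalised between the 24 arrays of the shared platform; IND (shaded) was normalised on its own platform. In DMSO cells IRF7 spans 6.14 to 13.5 on the shared platform, and OAS2, IFI6 and IFI44L are high with NP, 3MC and DBA. Each level is of the probe used, and the other probes of IRF7 and OAS2 are not shown.

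Beside the 31 members, 70 other genes of the interferon pathway were listed, and 65 were tested on the shared platform and 45 on that of IND. The numbers that rose and fell were 17 and 4 with BaP, 17 and 3 with CHR, 15 and 7 with BF, and 10 and 3 with IND. They were 6 and 4 with PH, 4 and 1 with BA, 2 and 9 with NP, and 2 and 2 with both 3MC and DBA. The share that rose was 26.2% with both BaP and CHR, 23.1% with BF and 22.2% with IND, above the 15.1%, 11.7%, 16.0% and 10.5% of all genes. In these 4 the share that fell was below that of all genes. With PH 9.23% rose and 6.15% fell (10.6% and 7.89% of all genes), and with NP 3.08% and 13.8% (6.72% and 12.6%). With BA 6.15% rose and 1.54% fell (2.04% and 3.1%). With 3MC and DBA 3.08% moved each way, where 3.68% and 3.08% of all genes rose and 7.46% and 7.25% fell. Of the 65, 16 with DBA, 10 with CHR and 9 with BF stood above background in neither channel. Without BA array 1 the counts with BA became 4 and 3. Under median centring the counts became 22 and 2 with BaP, 6 and 3 with BA, 1 and 3 with 3MC, and 5 and 1 with DBA. Where a gene had more than 1 probe, its call and its value below are of the brightest, and its other probes were not compared singly. Under the mean of a gene's probes the counts became 11 and 2 with CHR, 15 and 3 with BaP, and 14 and 9 with BF. They became 8 and 3 with IND, 4 and 3 with PH, and 2 and 6 with NP. With BA they were 4 and 0, with 3MC 2 and 1, and with DBA 1 and 1.

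Of 12 interferon genes tested on the shared platform, IFNA6 fell with NP (-0.77) and no other call was made. Most of their probes were dim. In Cy5, IFNG and IFNW1 stood above background on 2 of the 24 arrays of the shared platform, IFNA8 on 3, and IFNE and IFNL3 on 4. IFNK did so on 7, IFNA2, IFNA5, IFNA6 and IFNB1 on 12, and IFNL1 on all 24. IFNL2, tested with all 9 compounds, did so on 24 of 27 arrays. For most ligands a change below background would thus not be seen. Among receptor chains, IL10RB, part of the receptor of lambda interferons, rose with CHR, PH, BaP and IND (0.89, 0.82, 0.62 and 0.59). IFNLR1, its partner, rose with BF, IND and PH (1.56, 0.66 and 0.59). IFNAR1 rose with BF and CHR (0.61 and 0.59) and fell with NP (-0.84). Of the factors, IRF3, which is activated downstream of the RNA sensors, rose with 6 compounds, from 0.63 with DBA to 1.2 with BaP. IRF5, a factor used by Toll-like receptors, rose with BaP, BF, CHR and IND (1.39, 0.99, 0.94 and 0.89), and STAT3 with NP, BaP, DBA and 3MC (0.84, 0.71, 0.71 and 0.59).

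STING1, the adaptor of DNA sensing, had log2 ratios of 2.44, 2.63 and 2.65 with BaP, and 2.13, 2.24 and 2.27 with CHR. Its means were 2.58 ± 0.12 and 2.21 ± 0.07 (SD, n = 3 each; limma adjusted p = 5.92e-15 and 1.19e-13), and it also rose with IND and BF (1.01 and 0.90). The kinase IKBKE fell with BF and CHR (-1.67 and -0.70) and rose with BaP (0.61). Of the inhibitors, the ubiquitin ligase TRIM21 rose with IND, CHR, BaP and BF (1.29, 1.18, 1.12 and 1.09). SOCS3, which blocks JAK kinases, rose with BF, BA and PH (1.60, 0.89 and 0.68), and by at least 3.04-fold with IND, where DMSO cells did not stand above background. SOCS1 rose with CHR (0.96) and fell with BF and IND (-1.51 and -0.92).

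Of the further induced genes, GBP2 rose with 6 compounds and GBP3 with 5. GBP2 had 2.04, 1.88 and 2.11 with BF, 1.82, 1.79 and 1.63 with BaP, and 1.52, 1.59 and 1.37 with IND. GBP3 was highest with BF, at 2.60 ± 0.09, followed by BaP at 1.49 ± 0.11 (limma adjusted p = 4.72e-15 and 8.52e-11). With BA the calls of GBP2, GBP3 and SOCS3 rested on arrays 2 and 3, whose means were 1.54, 0.98 and 1.35, while array 1 gave 0.04, 0.04 and -0.01. SP100, a protein of nuclear bodies, fell with all 8 compounds of the shared platform, from -0.70 with NP to -1.66 with BaP, and was -0.12 with IND. SP100 had 5 probes, and these values are of the brightest on each platform, with the others not compared. A dye effect of that probe cannot be told apart from an effect of the compounds. PML, which builds the same bodies, rose with CHR, BaP and IND (1.03, 0.90 and 0.70). TRIM22 rose with CHR and BaP, at 3.54 ± 0.25 and 2.41 ± 0.13, and fell with PH (-1.09), with DMSO cells above background on 1 of 3 CHR arrays. These values are of the brighter of its 2 probes.

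TRIM25, which modifies the sensor encoded by DDX58, fell with CHR, BF and BaP (-1.49, -1.42 and -0.59). PLSCR1 fell with 3MC, NP, BaP and DBA (-1.29, -1.17, -0.63 and -0.62). LGALS3BP fell with BF (-2.22) and rose with PH and BaP (0.84 and 0.69), and APOL6 rose with BA (1.18) and fell with BaP and PH (-1.76 and -1.19). PARP9 rose with CHR, BF and BaP (0.83, 0.66 and 0.65) and fell with PH (-0.77), and SAMD9 rose with BF (0.64) and fell with IND and NP (-0.88 and -0.67). RSAD2, CXCL10 and CXCL11, induced strongly by interferon in many cells, passed with none of the 8 compounds in which they were tested. In Cy5, however, RSAD2 stood above background on 4, CXCL10 on 3 and CXCL11 on 12 of the 24 arrays of those compounds. Changes below background would therefore not be seen.

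Members with and without the interferon-stimulated response element core in the window are set side by side as a description, with no test. A member without a match may have the element with another spacing or outside the window. The shares of all genes that rose or fell with each compound are those given above. With BaP, 7 of 16 with the core rose, against 6 of 8 without it. With CHR, 2 of 16 with it rose, against 6 of 8 without it, and the medians of the log2 ratios were 0.13 and 0.90. With NP the order was the opposite: 3 of 16 with it rose and 1 fell, against 0 of 8 and 3 of 8 without it, with medians of 0.14 and -0.21. With PH, 2 of 16 with it rose and 4 fell, against 2 and 1 of 8 without it. With BF, 0 of 16 with it rose and 3 fell, against 3 and 2 of 8 without it. With IND, 4 of 15 with it rose and 3 fell, against 3 and 0 of 7 without it. With DBA, 3 of 16 with it rose, against 3 of 8 without it, and none fell. With 3MC and BA, 1 of 16 with it passed in each, against 0 of 8 without it. The 5 windows printed above include rises and falls with the same compound: with PH, IFITM1 and IFITM3 rose while IFIT1 and IFIH1 fell, and each window holds the pattern. Whether the element took part in any of these changes was not tested.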

How the data were processed

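Messenger RNA was measured on 27 two-colour arrays, 3 per compound, with exposed cells in Cy5 and DMSO cells in Cy3, per the labels. The deposited scanner output holds spot and local background intensity values in both dyes, not normalised, per the file headers, and the percent of saturated pixels per spot, also per the file headers. Log2 ratios were deposited as well, normalised by the authors by a method not given in the sources used here. Of their 27 columns, 20 could be tied to spots and served as an alternative, and 7 were not used.

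Spots flagged bad (-75 or lower) and control spots were left out. Background was corrected by normexp (offset 50), arrays were normalised by loess, and channel levels additionally by Aquantile, with R 4.3.3 and limma 3.58.1; tables and figures used Python 3.11.15, pandas 2.3.3, numpy 2.4.6 and matplotlib 3.10.9. Probes entered the test where either channel exceeded its background by 2 background SDs on 2 or more of a compound's 3 arrays. The brightest probe stood for a gene, and probes with no gene name were left out. IND was fitted alone and the other 24 arrays in 1 fit. Compound means were tested against 0, and against each other in 6 pairs, 2-sided, with Benjamini-Hochberg adjustment, and passed at an adjusted p under 0.05 and at least 1.5-fold. On simulated log ratios at least 91% of 2-fold and 99.5% of 4-fold changes were recovered in each of 15 comparisons, and at most 4 unchanged genes passed. The simulation changed 200 genes per compound, with independent normal errors of 1 SD per gene, after normalisation. It therefore does not cover dye effects, errors shared by arrays, a deviating array or the normalisation itself.

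Same-numbered arrays of different compounds did not deviate together (mean residual correlation 0.00285 over 84 pairs of arrays), so no pairing was used. The members and lists were chosen with earlier results of these data known. Values per array are given for members that passed with at least 3 compounds and for the 2 highest and 2 lowest per compound, differences for the 2 largest per pair, and values of other pathway genes for those that passed with at least 3 compounds or were highest or lowest with one; further members and IFNB1, IFNA2, RSAD2, CXCL10 and CXCL11 were named after their values were seen. Alternatives were plain background subtraction, median centring, no or a stricter filter on dim probes, the mean of a gene's probes, spots not found left out, a replicate block, compounds fitted alone, no minimum fold, the authors' values, and each array left out; leaving BA array 1 out of the whole fit was chosen after seeing the data.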

Additional observations from a re-analysis of the deposited data

How the results depend on the processing

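The 80 changes of members that passed were recomputed under the alternatives that applied to each, which gave 1063 values: 1043 kept direction and call, 20 kept direction and no longer passed, and 0 reversed. Dropping the minimum fold could not end a call, and leaving out 1 array could not reverse one, since all 3 arrays shared a sign. A gene's other probe alone was not among the alternatives. Its sign was opposite for IFI27 and MX2 with BF (0.57 and -0.48) and for IFI16 with NP (0.06). The other calls of members with more than 1 probe kept their sign. Median centring accounted for 7 of the 20, the mean of a gene's probes and the authors' values for 2 each, fitting compounds alone and leaving out spots not found for 1 each, and leaving out single arrays for 7; the cause was not tested. Counts moved most without a minimum fold. On adjusted p alone the members that passed numbered 23 with NP, 22 with PH, 16 with BA, 23 with CHR, 17 with 3MC, 25 with BaP, 24 with IND, 26 with BF and 16 with DBA. The other pathway genes numbered 36 with NP, 43 with PH, 30 with BA, 39 with CHR, 28 with 3MC, 45 with BaP, 37 with IND, 42 with BF and 22 with DBA. The pairs had 17 members for CHR minus BA, 24 for BaP minus BF, 22 for BaP minus PH, 13 for DBA minus NP, 13 for 3MC minus NP and 8 for DBA minus 3MC. Shares of all genes that passed were not counted on adjusted p alone or under the other alternatives. The counts in this section therefore have no background beside them. With BA fitted alone, 0 members and 0 other pathway genes passed; the cause was not tested. Plain background subtraction gave 2 members with BA and 3 with 3MC, 8 other pathway genes with BA, 7 with 3MC and 9 with DBA, and 3 members for DBA minus 3MC. Median centring gave 5 members with BA and 2 with 3MC, 9 other pathway genes with BA, 10 members for DBA minus NP, 7 for 3MC minus NP and 7 for DBA minus 3MC. With spots not found left out, 2 members passed with 3MC. The authors' values gave 3 members with 3MC, and 7 other pathway genes with 3MC and 7 with DBA. The mean of a gene's probes gave 13 other pathway genes with CHR and 2 with DBA. Leaving out single 3MC arrays gave 1 to 2 members. A fit with the replicate block (array number) gave 8, 10, 1, 11, 1, 16, 12 and 7 members with NP, PH, BA, CHR, 3MC, BaP, BF and DBA, and changed no other call. Without BA array 1 in the fit, 1 member passed with BA. No replicate block or authors' values could be run for IND. The DBA, 3MC and NP arrays had the lowest signal over background, with Cy5 medians of 36 to 48 on DBA and 85 to 124 on 3MC and NP arrays. The normexp offset of 50, added to both channels, is large beside these signals and draws log2 ratios toward 0. How far it lowered ratios, counts and pair differences with these compounds was not tested.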
